A study of Homo sapiens with 9 samples.

Results

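The genes of the small ribosomal subunit proteins were followed by ribosome profiling in Jurkat cells, a human T cell leukaemia line, before and after activation. The 31 genes are RPS2 to RPS29 (with RPS3A, RPS4X, RPS15A and RPS27A) and RPSA, chosen by their Ensembl identifiers as a known protein family and not by their measured values. Other genes of the subunit, among them FAU and RACK1, were not in this set. All 31 were among the 19569 identifiers of the deposited count table, and all 31 were among the 13920 identifiers abundant enough to be tested. The labels describe Jurkat clone E6-1 T lymphoblasts, which are 1 clonal line and not primary T cells. Control cells were not activated. The other groups were activated for 5 h or 12 h on plates coated with anti-CD3 at 10 µg/mL, with anti-CD28 at 5 µg/mL in the medium. Each of the 3 groups had 3 libraries, which the series describes as biological replicates. The title places the study in the question of how miRNAs act on translation and on RNA decay during T cell activation.

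Ribosome profiling sequences the mRNA fragments that ribosomes protect from nuclease, so a gene's footprint count rises with the amount of its mRNA and with the number of ribosomes on each mRNA. The small subunit holds the decoding site, where transfer RNAs are matched to the codons of the mRNA. Its proteins and those of the large subunit are encoded by mRNAs that mostly start with a C followed by a run of pyrimidines, the terminal oligopyrimidine tract, and whose translation depends on mTOR signalling and on the RNA-binding protein LARP1. Activated T cells are known to raise protein synthesis and ribosome production before they divide.

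Total counts ran from 4343515 in replicate 2 at 12 h to 18506509 in replicate 3 at 5 h. Each of the small subunit genes had between 1215 and 31764 counts in a library, and their mean abundance ranked between 30 and 559 among the 13920 identifiers tested. The variation between replicates, estimated by edgeR as a biological coefficient of variation, was 6.95% to 8.43% for these genes. The single value fitted in common to all tested identifiers, most of them less abundant, was 15.6%. No value for other identifiers of like abundance is given here. Markers of T cell identity were not checked here, because the table holds identifiers with no gene names. The gene set itself is named through the order in which its identifiers were listed. A search of the RefSeq gene table found 693 pseudogenes named after these 31 genes, from 4 for RPS9 to 74 for RPSA, with a median of 15 per gene. How fragments that match both a gene and its pseudogenes were assigned is not stated in the labels or files, so each level may hold or lack some shared fragments.

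The start regions of the genes are shown first, because the pyrimidine run at the transcription start is the sequence feature for which this family is known. Promoter sequences from RefSeq (GRCh38.p14) matched 24 of the 31 genes. RPS2, RPS15A and RPS20 were among the 7 genes with no match. Each window below holds 12 bases before the annotated start and 18 bases from it, 5′ to 3′ in the direction of transcription. Capitals mark the longest run of C and T that starts with C and begins within 10 bases of the annotated start, where it reaches 5 bases. The windows of 5 genes with large falls at 12 h come first, then those of the 3 matched genes with the smallest changes at 12 h (RPS14, RPS26 and RPSA), and last those of the 2 genes without such a run.
RPS6, chr9:19380219-19380248, minus strand: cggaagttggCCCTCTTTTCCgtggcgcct
RPS23, chr5:82278337-82278366, minus strand: tgcggtgCTTCTCTCTTTCgctcaggcccg
RPS12, chr6:132814557-132814586, plus strand: tgcggatgaggCCTCTTTCCCTgccgccgc
RPS7, chr2:3575248-3575277, plus strand: tccgCCCTCCTCCTCgcgctgtttccgcct
RPS27, chr1:153990750-153990779, plus strand: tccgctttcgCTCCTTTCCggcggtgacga
RPS14, chr5:150449722-150449751, minus strand: ccccctcccaCTCTCTCTTTCCggtgtgga
RPS26, chr12:56041906-56041935, plus strand: acacataacctcgattttCTTCCgccatcc
RPSA, chr3:39406708-39406737, plus strand: cctgccgcctgtCTTTTCCgtgctacctgc
RPS4X, chrX:72277231-72277260, minus strand: gtctccagccccaatttctacgcgcaccgg
RPS29, chr14:49598693-49598722, minus strand: cgagcgcgcagctggcagcggtggttgttt

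A run of at least 5 bases was present in 22 of the 24 matched genes (91.7%), where a gene with several promoter entries counts by its longest run. By entry it was present in 24 of 27 (88.9%). The share was 32.5% of all 35116 RefSeq promoter entries, searched the same way in the direction of transcription but with chromosome 8 kept. A run of at least 8 bases was present in 18 of the 24 genes, by their longest run, and in 8.86% of all promoter entries. The median run of the matched genes was 10.5 bases, and the longest was the 15 bases of RPS21. RPS4X had a run of 4 bases and RPS29 a run of 2 bases. These matches describe the letters around the annotated start, and the start used in Jurkat cells was not measured.

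Summed over the 31 genes, the share of the footprints was smaller after activation. In resting cells the 31 genes together held 3.20%, 3.12% and 2.97% of all counts in replicates 1 to 3. At 5 h they held 2.61%, 2.59% and 2.49%. At 12 h they held 2.18%, 2.34% and 2.34%. All resting libraries lay above all 5 h libraries, and all 5 h libraries lay above all 12 h libraries. The mean share was 3.10% ± 0.119 (SD, n = 3) at rest, 2.56% ± 0.0616 (SD, n = 3) at 5 h and 2.29% ± 0.0921 (SD, n = 3) at 12 h. Relative to rest the mean share differed by -17.3% at 5 h and by -26.1% at 12 h, and from 5 h to 12 h it differed by -10.7%. A two-sided exact permutation test gave p = 0.1 for each of these comparisons, the smallest p that 3 libraries against 3 allow. A share is relative to all other footprints, so the number of footprints per cell was not measured. Fewer mRNA copies, fewer ribosomes on each mRNA and fewer cells making the mRNA cannot be told apart here.

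**Figure D1:**
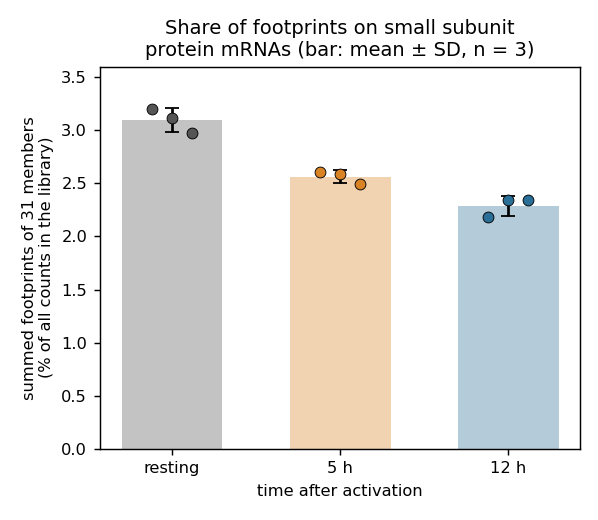
Summed footprint counts of the 31 small subunit protein genes as a percent of all counts in each library (vertical axis, starting at 0) for the resting, 5 h and 12 h groups (horizontal axis). Points are libraries, bars are group means and error bars are the SD (n = 3). The resting libraries lie between 2.97% and 3.20%, the 5 h libraries between 2.49% and 2.61%, and the 12 h libraries between 2.18% and 2.34%.

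Gene by gene, the comparison of 5 h with rest asked which of these proteins' mRNAs carried fewer footprints early in activation. The level of a gene is its TMM-scaled CPM (its count relative to the library's total, adjusted by edgeR's scaling factor), and its change is the fitted log2 fold change. Levels were not divided by gene length, so they compare libraries and not genes. At 5 h, 28 of the 31 genes were lower than at rest and 0 were higher by edgeR's quasi-likelihood test at a Benjamini-Hochberg adjusted p under 0.05. The share of all tested identifiers called lower was 18.4%, and the share called higher was 16.0%. Among the 695 other identifiers with a mean of at least 256 CPM, a level that all 31 genes reached, 52.1% were called lower. The genes that did not pass the test were RPS2, RPS20 and RPSA. In the same 28 genes each 5 h library lay below each resting library, which held for 22.6% of all tested identifiers and 53.8% of the other abundant ones. The median log2 fold change of the 31 genes was -0.43, a ratio of 0.741, against 0.07 over all tested identifiers and -0.22 over the other abundant identifiers.

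At 12 h, 29 of the 31 genes were lower than at rest and 0 were higher by the same edgeR test, where 19.3% of all tested identifiers were called lower and 15.8% higher. Of the other abundant identifiers, 50.2% were called lower. RPS2 and RPSA did not pass the test. The 12 h libraries lay below the resting libraries without overlap in 29 genes, against 23.7% of all tested identifiers and 56.5% of the other abundant ones. The median log2 fold change was -0.68, a ratio of 0.623, against 0.04 over all tested identifiers and -0.22 over the other abundant identifiers. The comparisons of 5 h and 12 h with rest share the resting libraries. When a fall of more than 1.5-fold was required (edgeR's glmTreat), 12 of the 31 genes passed at 12 h, where 4.33% of all tested identifiers did. They included RPS4X, RPS6, RPS7, RPS12, RPS15A, RPS16, RPS18, RPS23, RPS25 and RPS27. At 5 h 0 of the 31 passed that stricter test, against 3.20% of all tested identifiers, and 0 passed it between 5 h and 12 h, against 2.87%.

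**Figure D2:**
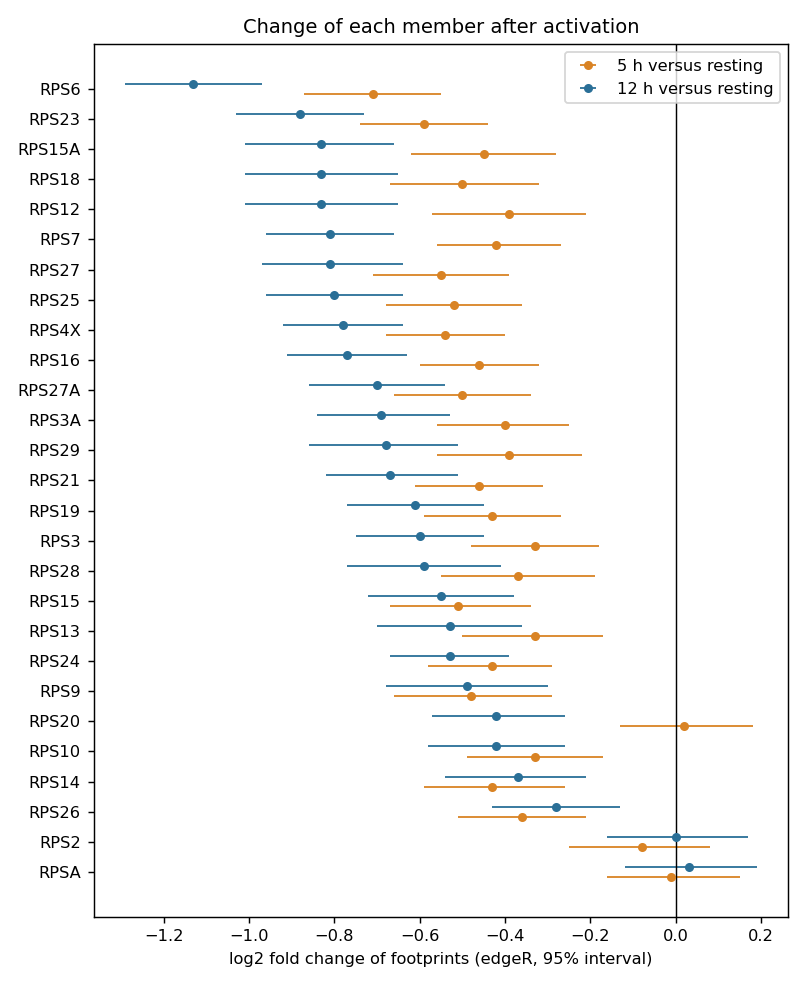
Fitted log2 fold change of 27 of the 31 genes (rows) at 5 h (orange) and 12 h (blue) against rest, with 95% intervals from the edgeR fit and 3 libraries per group. RPS6 lies furthest to the left at both times, at -0.71 and -1.13, and the intervals of RPS2 and RPSA span 0 at both times.

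The direct comparison of 12 h with 5 h gave 18 genes lower and 0 higher by edgeR's quasi-likelihood test, with 13.5% of all tested identifiers and 28.1% of the other abundant identifiers called lower and 11.6% of all called higher. The libraries at 12 h lay below those at 5 h without overlap in 22 genes, against 20.8% of all tested identifiers and 32.8% of the other abundant ones. The median log2 fold change was -0.26, against -0.05 over all tested identifiers. The 13 genes that did not pass included RPS2, RPS9, RPS10, RPS13, RPS14, RPS15, RPS19, RPS24, RPS26, RPS27A, RPS28 and RPSA. This count rested in part on 1 library, since it was 11 without replicate 3 at 5 h, and it was 6 when limma was run on the authors' log2 values.

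RPS6 (ENSG00000137154.13), the protein phosphorylated by the S6 kinases downstream of mTOR, changed most. Its level was 2224, 2642 and 1996 CPM in the resting libraries, 1356, 1391 and 1455 CPM at 5 h, and 1026, 1045 and 1063 CPM at 12 h. Each group lay below the one before it without overlap. The log2 fold change was -0.71 ± 0.077 (SE) at 5 h with an edgeR adjusted p of 1.33e-07, and -1.13 ± 0.078 (SE) at 12 h with an edgeR adjusted p of 7.4e-11. In percent, RPS6 footprints fell by 38.8% at 5 h and fell by 54.3% at 12 h. RPS6 also fell between 5 h and 12 h, by 0.42 on the log2 scale (edgeR adjusted p = 0.000203). The resting libraries of RPS6 were further apart (SD 328.1 CPM) than those at 5 h (SD 50.1 CPM) or 12 h (SD 18.4 CPM).

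RPS23 also fell at both times. RPS23 (ENSG00000186468.13) reaches into the decoding centre. RPS23 stood at 1819, 1979 and 1643 CPM at rest, at 1113, 1245 and 1249 CPM at 5 h, and at 945.8, 992.9 and 1013 CPM at 12 h. Every RPS23 value at 12 h was below every value at 5 h, and every value at 5 h was below every value at rest. The log2 fold changes of RPS23 were -0.59 ± 0.072 (SE) and -0.88 ± 0.073 (SE), with edgeR adjusted p of 6.81e-07 and 1.53e-09.

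RPS27 (ENSG00000177954.14), a zinc finger protein of the subunit, had 628.4, 627.5 and 549.7 CPM at rest, 413.3, 407.9 and 413.6 CPM at 5 h, and 327.9, 345.7 and 358.6 CPM at 12 h. The 5 h libraries of RPS27 were close together (SD 3.21 CPM), and the 3 groups did not overlap. The log2 fold changes against rest were -0.55 ± 0.078 (SE) and -0.81 ± 0.078 (SE), with edgeR adjusted p of 5.82e-06 and 2.34e-08. From 5 h to 12 h RPS27 had a log2 fold change of -0.26 (edgeR adjusted p = 0.0157). Besides the 1.5-fold test, this call did not hold in 4 alternatives, in which the log2 fold change stayed between -0.27 and -0.22. It was -0.23 without replicate 3 at 5 h (edgeR adjusted p = 0.0775), -0.23 without replicate 1 at 12 h (edgeR adjusted p = 0.0897) and -0.27 without replicate 2 at 12 h (edgeR adjusted p = 0.0507). With limma on the authors' log2 values it was -0.22 (adjusted p = 0.111).

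In RPS7 and RPS12 much of the change came between 5 h and 12 h. RPS7 (ENSG00000171863.15), which also binds the p53 regulator MDM2, had 1887, 2119 and 1743 CPM at rest, 1348, 1441 and 1514 CPM at 5 h, and 1093, 1108 and 1081 CPM at 12 h. RPS12 (ENSG00000112306.8), a protein of the head, had 550.3, 615.7 and 499.5 CPM at rest, 404.6, 451.2 and 415.9 CPM at 5 h, and 287.6, 314.2 and 334.9 CPM at 12 h. In both genes the groups stepped down without overlap. From 5 h to 12 h the log2 fold change was -0.39 ± 0.07 (SE) for RPS7 and -0.44 ± 0.088 (SE) for RPS12, with edgeR adjusted p of 0.00018 and 0.000501. Against rest at 12 h the same genes had log2 fold changes of -0.81 and -0.83, with edgeR adjusted p of 4.37e-09 and 8.98e-08.

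**Figure D3:**
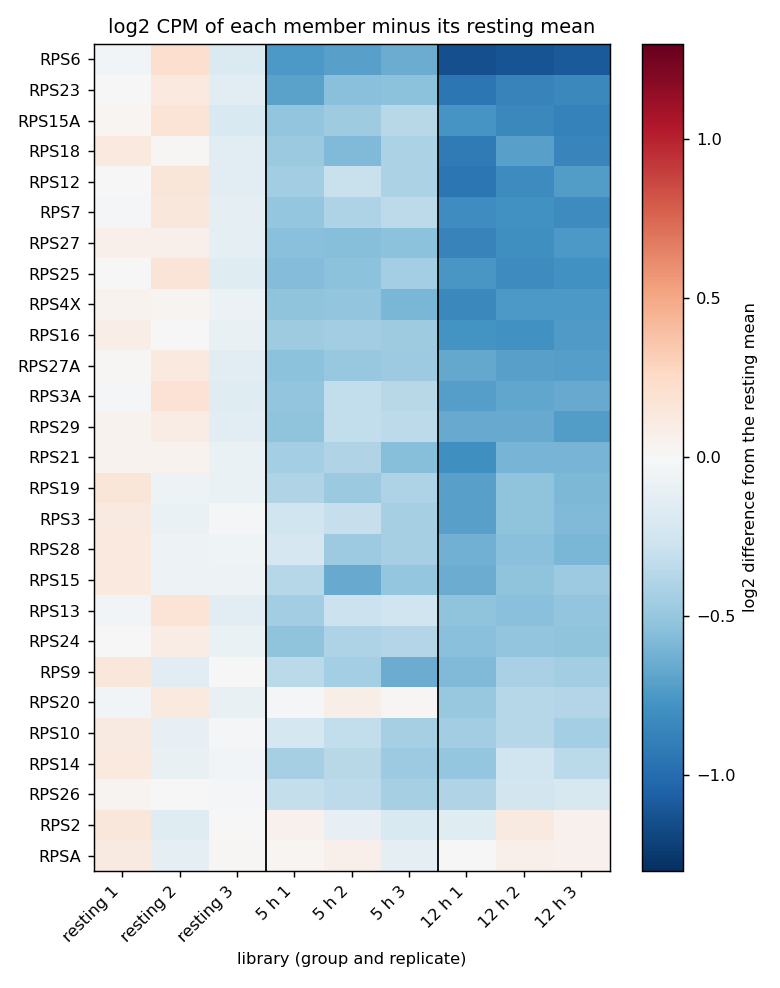
Colour scale of log2 CPM minus the gene's resting mean for 27 of the 31 genes (rows, ordered by the change at 12 h) in the 9 libraries (columns). RPS6 at the top is the darkest blue at 12 h, RPS20 is near 0 in the 5 h libraries, and RPS2 and RPSA at the bottom are pale in all 9 libraries.

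RPS20 (ENSG00000008988.11), a head protein that is ubiquitinated when ribosomes stall, had another time course. It stood at 651.2, 726.9 and 623.3 CPM at rest, at 659.3, 701.9 and 671.4 CPM at 5 h, and at 473.2, 514.7 and 512.9 CPM at 12 h. The 5 h libraries lay inside the resting range, and the 12 h libraries lay below both other groups. The log2 fold change was 0.02 at 5 h with a 95% interval from -0.13 to 0.18 (edgeR adjusted p = 0.844). At 12 h it was -0.42 ± 0.076 (SE) against rest (edgeR adjusted p = 0.000133), and -0.44 ± 0.076 (SE) against 5 h (edgeR adjusted p = 0.000113). The difference of RPS20 between 12 h and 5 h was, with that of RPS12, the largest in size of the 31 genes.

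RPS2 and RPSA did not pass the test in any of the 3 comparisons. RPS2 (ENSG00000140988.16) lies near the entry of the mRNA channel. Its level was 1832, 1487 and 1666 CPM at rest, 1716, 1541 and 1449 CPM at 5 h, and 1488, 1792 and 1721 CPM at 12 h, and all 3 groups overlapped. The log2 fold change of RPS2 was -0.08 at 5 h (95% interval -0.25 to 0.08, edgeR adjusted p = 0.458) and 0.00 at 12 h (95% interval -0.16 to 0.17, edgeR adjusted p = 0.978). These intervals exclude a fall as large as the median of the 31 genes at either time. RPS2 has 55 named pseudogenes.

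RPSA (ENSG00000168028.14), also known as the laminin receptor precursor, sits on the solvent side near the exit of the mRNA channel. RPSA had 862.3, 730.8 and 804.5 CPM at rest, 814.1, 834.6 and 736.3 CPM at 5 h, and 791.8, 832.2 and 828.3 CPM at 12 h. The groups overlapped here too. The log2 fold change was -0.01 at 5 h (95% interval -0.16 to 0.15, edgeR adjusted p = 0.949) and 0.03 at 12 h (95% interval -0.12 to 0.19, edgeR adjusted p = 0.776). RPSA has the most named pseudogenes of the family, 74, whereas RPS26 with 59 and RPS3A with 54 passed the test at both times. The part of pseudogene fragments in these values was not tested.

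RPS26 and RPS14 were lower than at rest at both times, with no further fall between 5 h and 12 h that passed the test. RPS26 (ENSG00000197728.11), which contacts the mRNA upstream of the start codon, had 881.1, 854.2 and 844.8 CPM at rest, 692.4, 680.1 and 637.0 CPM at 5 h, and 655.2, 726.9 and 743.6 CPM at 12 h. Both activated groups lay below rest and overlapped each other. The log2 fold changes against rest were -0.36 ± 0.071 (SE) and -0.28 ± 0.071 (SE), with edgeR adjusted p of 0.000323 and 0.00345. RPS14 (ENSG00000164587.13), the platform protein whose loss of a copy is linked to the anaemia of a deletion form of myelodysplastic syndrome, had 980.5, 839.6 and 870.8 CPM at rest, 662.1, 696.7 and 644.4 CPM at 5 h, and 630.0, 749.0 and 700.2 CPM at 12 h. All 6 activated libraries of RPS14 were below the lowest resting library. The log2 fold changes of RPS14 were -0.43 ± 0.078 (SE) at 5 h and -0.37 ± 0.079 (SE) at 12 h, with edgeR adjusted p of 0.000153 and 0.000616. From 5 h to 12 h the log2 fold change was 0.08 for RPS26 and 0.05 for RPS14, with edgeR adjusted p of 0.478 and 0.703.

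RPS10, RPS19 and RPS27A were also lower at both times, and their differences between 12 h and 5 h did not pass the test. RPS10 (ENSG00000124614.16), a head protein that, like RPS20, is ubiquitinated on stalled ribosomes, had 758.6, 647.9 and 692.5 CPM at rest, 597.6, 558.2 and 517.1 CPM at 5 h, and 510.6, 541.4 and 515.2 CPM at 12 h. The log2 fold changes of RPS10 against rest were -0.33 ± 0.078 (SE) and -0.42 ± 0.079 (SE), with edgeR adjusted p of 0.00205 and 0.000167. RPS19 (ENSG00000105372.8), the gene most often mutated in Diamond-Blackfan anaemia, had 974.8, 839.4 and 823.6 CPM at rest, 666.9, 627.1 and 661.5 CPM at 5 h, and 536.7, 610.0 and 585.4 CPM at 12 h. Its log2 fold changes were -0.43 ± 0.078 (SE) and -0.61 ± 0.078 (SE), with edgeR adjusted p of 0.000117 and 1.56e-06. RPS27A (ENSG00000143947.15), made as a fusion with ubiquitin, had 726.7, 782.5 and 646.8 CPM at rest, 494.5, 510.7 and 517.9 CPM at 5 h, and 451.8, 438.5 and 436.1 CPM at 12 h. Its log2 fold changes were -0.50 ± 0.077 (SE) and -0.70 ± 0.078 (SE), with edgeR adjusted p of 1.72e-05 and 1.79e-07. In all 3 genes the activated libraries lay below every resting library. The RPS19 and RPS27A libraries at 12 h also lay below those at 5 h, by log2 fold changes of -0.18 and -0.20 with edgeR adjusted p of 0.106 and 0.0628. This RPS27A difference did pass in some alternatives. Its edgeR adjusted p was 0.0438 with upper quartile scaling, 0.0313 without resting replicate 2 and 0.0491 without resting replicate 3.

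Another 14 genes were all called lower than at rest at both times by the edgeR test. They ran from -0.33 (RPS3 and RPS13) to -0.54 (RPS4X) at 5 h and from -0.49 (RPS9) to -0.83 (RPS15A and RPS18) at 12 h on the log2 scale. RPS9 and RPS15 had nearly their whole difference by 5 h, with log2 fold changes of -0.48 and -0.51 at 5 h and of -0.49 and -0.55 at 12 h. RPS15A and RPS18 moved on, from -0.45 and -0.50 at 5 h to -0.83 and -0.83 at 12 h. RPS3, which lines the entry of the mRNA channel, had -0.33 and -0.60, and RPS3A had -0.40 and -0.69.

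The genes were also set against the other identifiers of the table on the same scale. At 5 h, 18.0% of all tested identifiers and 30.2% of the other abundant ones had a log2 fold change below the family's median. At 12 h these shares were 12.0% and 20.1%. Falls of the family's size were therefore found in many other abundant identifiers.

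**Figure D4:**
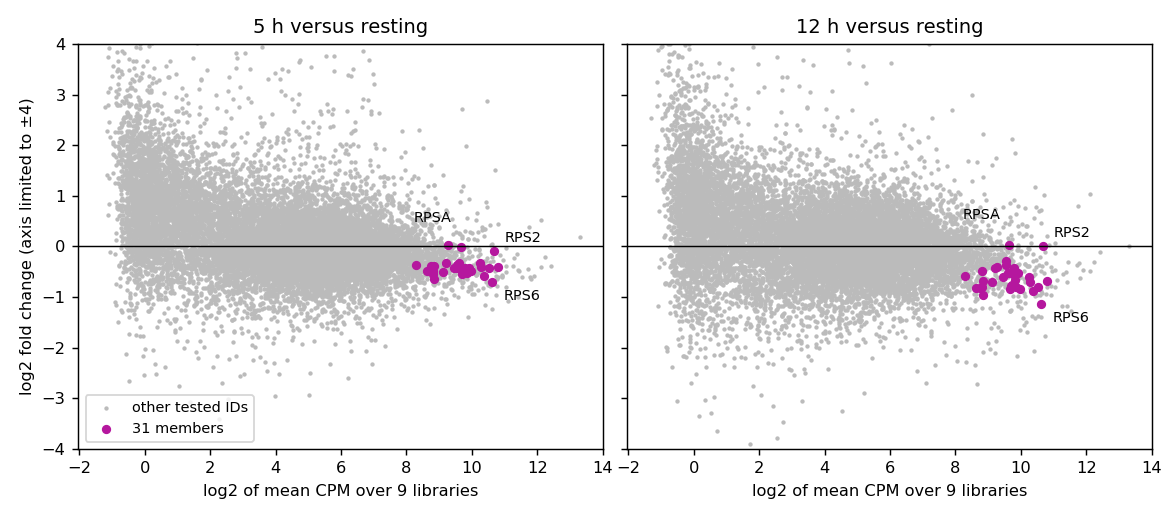
Log2 fold change (vertical axis, limited to ±4) against log2 of the mean CPM over the 9 libraries (horizontal axis) for all tested identifiers (grey) and the 31 genes (purple), at 5 h (left) and 12 h (right). The 31 genes lie at the abundant end and mostly below 0, with RPS6 lowest, and 114 identifiers at 5 h and 79 at 12 h lie outside the vertical range.

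By place in the subunit, the 14 head proteins and the 17 body and platform proteins had the same median log2 fold change at 5 h, -0.43. At 12 h the medians were -0.65 and -0.69, and 14 of 14 and 15 of 17 were called lower. RPS2 and RPSA belong to the body and platform group and RPS20 to the head. Divided by ancestry, all 16 proteins without a bacterial counterpart were called lower at 5 h, and 12 of the 15 with one were. The medians of these groups were -0.45 and -0.42 at 5 h, and -0.74 and -0.55 at 12 h. RPS2, RPS20 and RPSA all have a bacterial counterpart. These divisions are described and were not tested.

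By start sequence, the 18 genes with a run of at least 8 pyrimidines had median log2 fold changes of -0.44 at 5 h and -0.68 at 12 h. The 6 matched genes with a shorter run had -0.40 and -0.62, and among them RPS4X and RPS29, which lack a run of 5, had -0.54 and -0.39 at 5 h and -0.78 and -0.68 at 12 h. RPSA, whose window above shows a run of 7 bases, did not pass the test at either time. RPS14, RPS16 and RPS23 have runs of the same length, 12 bases, and log2 fold changes of -0.37, -0.77 and -0.88 at 12 h. The 7 genes without a matched promoter entry, chromosome 8 left out, had medians of -0.42 and -0.70. The relation of run length to change was not tested.

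The make-up of the family's footprints also differed between the groups. This was measured as each gene's share of the summed counts of the 31 genes, a quantity that does not depend on how libraries are scaled. RPS6 held 6.45%, 7.57% and 6.38% of the family's footprints at rest, 5.44%, 5.51% and 5.81% at 5 h, and 4.92%, 4.70% and 4.82% at 12 h. RPS2 held 5.31%, 4.26% and 5.33% at rest, 6.88%, 6.10% and 5.79% at 5 h, and 7.14%, 8.05% and 7.80% at 12 h. In both activated groups all RPS6 shares lay below, and all RPS2 shares above, those of the resting libraries.

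The RPSA share was 2.50%, 2.09% and 2.57% at rest, 3.26%, 3.30% and 2.94% at 5 h, and 3.80%, 3.74% and 3.75% at 12 h. Its mean at 12 h was 1.58 times the resting mean, the largest ratio of the 31 genes, and that of RPS2 was 1.54 times. The RPS20 share was 1.36 times its resting mean at 5 h and 1.16 times at 12 h. RPS26 held 2.56%, 2.45% and 2.70% at rest and 3.14%, 3.27% and 3.37% at 12 h, while RPS19 kept 0.991 and 1.01 of its resting share at 5 h and 12 h. At the other end, RPS6 had 0.707 and RPS23 0.839 of their resting shares at 12 h. Without RPS2, RPS20 and RPSA, a split chosen after their values were seen, the other 28 genes held 2.81% ± 0.117 (SD, n = 3) of all footprints at rest, 2.25% ± 0.0377 (SD, n = 3) at 5 h and 1.97% ± 0.0695 (SD, n = 3) at 12 h. RPS2, RPS20 and RPSA together held 0.289% ± 0.0241, 0.311% ± 0.0248 and 0.315% ± 0.0229 (SD, n = 3).

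**Figure D5:**
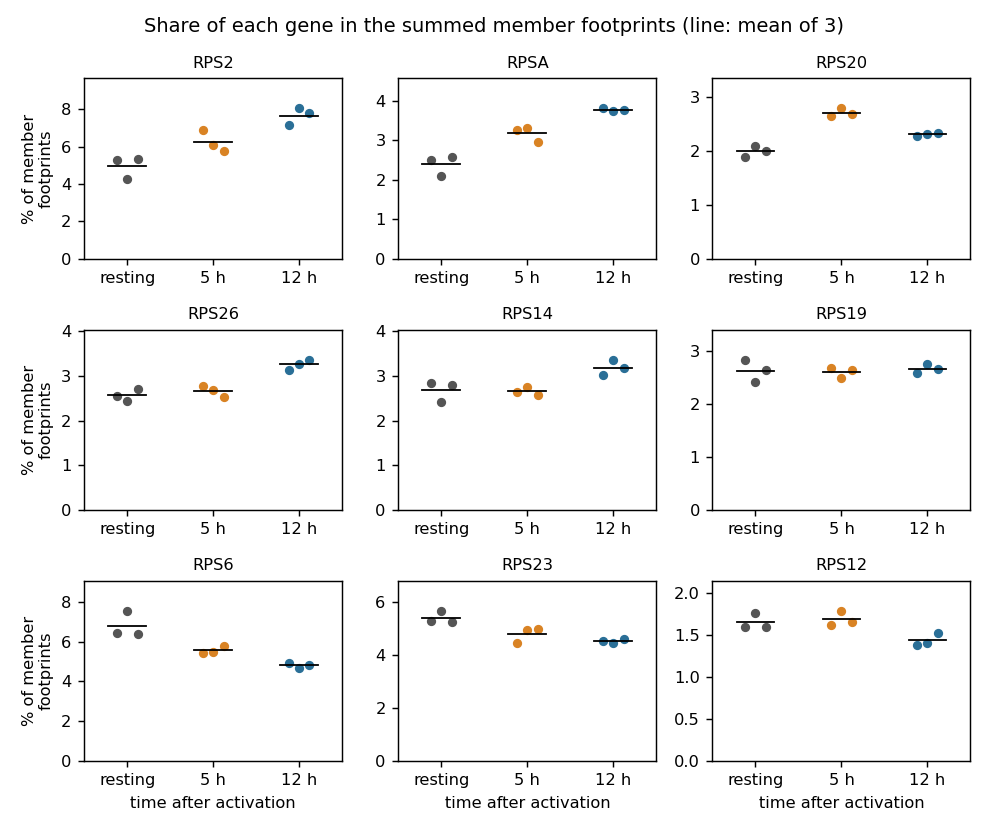
Share of 9 of the genes in the summed footprints of the 31 genes (vertical axes in percent, starting at 0) by group, with points for libraries and lines for means of 3. RPS2 and RPSA take larger shares at 12 h than at rest, RPS20 is highest at 5 h, RPS19 is level, and RPS6, RPS23 and RPS12 take smaller shares at 12 h.

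Replicates differed among themselves by gene as well. In the resting group, replicate 2 deviated most from the group mean, from -0.15 for RPS2 to 0.22 for RPS6 on the log2 scale, with an SD of 0.110 over the 31 genes. The SD in the other 8 libraries was between 0.041 and 0.080. Replicate 3 at rest lay lower for most of the genes, with a median deviation of -0.09. Leaving out any single library left 28 genes lower at 5 h and 29 lower at 12 h by the edgeR test.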

How the data were processed

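The authors deposited a table of whole-number footprint counts per Ensembl identifier for the 9 libraries, and a table of log2 values for 11572 of the identifiers. To within 5.05e-09, each deposited log2 value equals the log2 of 1 plus the count divided by 1 factor per library. That factor was derived from the deposited values themselves, so the match does not show that it is a DESeq2 size factor. The steps before deposit are known only by the tools listed in the submitters' processing notes (RSEM, Bowtie, cutadapt 3.2, bedtools and DESeq2) and the build GRCh38.p13. No source used here states their roles, the annotation or the handling of fragments with several matches. The labels' extraction protocol describes total RNA and mRNA-seq libraries and no footprinting step.

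The counts were scaled by TMM, filtered with edgeR's filterByExpr and fitted in edgeR 4.0.16 (R 4.3.3) with glmQLFit and glmQLFTest over all 9 libraries, with Benjamini-Hochberg adjustment over 13920 identifiers and a threshold of 0.05. The script was tested on simulated data. No replicates were treated as duplicates: counts of every pair within a group differed by a chi-square per degree of freedom of at least 3.73. Alternatives used DESeq2 1.42.0, limma 3.58.1, other scalings and filters, and left out each library.

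Genes given library by library were the 4 highest and 4 lowest fold changes of each comparison, with RPS6, RPS14, RPS19, RPS26, RPS27A and RPSA for their known roles. Some genes of the family are counted in the totals, and their single values are not reported here. The genes and lists were chosen with earlier results of these data known. Lists of other genes were not used here, because no table paired identifiers with names. They covered other small subunit genes, large subunit proteins, other terminal oligopyrimidine mRNAs and their regulators. Assembly factors, mitochondrial ribosomal proteins, and activation and cell type markers were also listed. Places in the subunit and bacterial counterparts were assigned from general knowledge of the ribosome. Levels per residue were not computed.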

Additional observations from a re-analysis of the deposited data

Results flagged for a closer look

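The differences from rest at 5 h and at 12 h were themselves unequal for 18 of the 31 genes, by the direct edgeR test of 12 h against 5 h at a Benjamini-Hochberg adjusted p under 0.05, and all 18 were lower at 12 h. On the log2 scale the values reported here were -0.44 for RPS12 and RPS20, -0.42 for RPS6, and -0.39 for RPS7 and RPS15A. RPS18 differed by -0.33, RPS16 by -0.31, RPS23 and RPS29 by -0.29, and RPS3A and RPS25 by -0.28. The smaller values were -0.27 for RPS3, -0.26 for RPS27, -0.23 for RPS4X and -0.21 for RPS21. With 3 libraries a group, single libraries far from their group were not searched for.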

How the results depend on the processing

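The counts of genes called lower were 28 at 5 h and 29 at 12 h under every alternative run except the 1.5-fold test, which gave 0 and 12, and 0 for 12 h against 5 h. For 12 h against 5 h, limma on the authors' log2 values called 6 genes, and leaving out 1 library at a time gave 11 to 20; the median log2 fold change, -0.26, was -0.23 with DESeq2's size factors, with DESeq2's Wald test and with only the 6 libraries compared, -0.22 with limma and with a filter of 50 counts in 3 libraries, and -0.27 to -0.22 leaving out 1 library at a time. The cause was not tested. Values near 0 that never passed the test changed sign: RPSA at 5 h was 0.01 with upper quartile scaling and 0.04 with the filter of 50 counts, and RPS2 at 12 h was -0.02 with no filter. Leaving out 1 library at a time, RPS20 at 5 h ran from -0.03 to 0.08, RPSA at 5 h from -0.07 to 0.04 and at 12 h from -0.04 to 0.08, RPS2 at 12 h from -0.08 to 0.07, and RPS14 at 12 h against 5 h from -0.01 to 0.12. Of 702 values of the genes given library by library, the 1.5-fold test left aside, 8 crossed the threshold, all in 12 h against 5 h. Same-numbered replicates did not deviate together (correlations -0.0625 to 0.0901), so the numbers are not taken as pairs; with the replicate block 28, 29 and 17 genes were called, and paired sign flips of the summed share gave p = 0.25, the smallest that 3 pairs allow. Scaling without the large subunit proteins and a share of counts without them were not run, because their identifiers could not be matched. At 1215 or more counts per gene and library, depth limited these genes less than the spread between replicates did.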

Other observations

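The identifiers outside the family with the most similar profile were ranked by Pearson r between their log2 CPM and the mean log2 CPM of the 31 genes over the 9 libraries. The 10 highest had r from 0.986 to 0.991. The first was ENSG00000111196.10, with log2 fold changes of -1.10 at 5 h and -1.68 at 12 h, and it changed more than any of the 31 genes. The next was ENSG00000166441.13, with -0.47 and -0.83. The deposited table does not name these identifiers, and the libraries fall into groups, so these values describe the ranking and carry no test.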
